A study of Mus musculus with 12 samples.

Results

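To ask which mRNAs depend on Mbd3 in embryonic stem (ES) cells, the 2 arrays labelled *Mbd3* KD were compared with the 2 arrays labelled as control (*EGFP* KD), 4 of the 12 one-colour Agilent arrays in the series. The cells were E14, a line of mouse ES cells, grown on gelatin without feeder cells in medium with serum and LIF. Both groups were transfected with esiRNAs, pools of short interfering RNAs made by enzymatic digestion of a long double-stranded RNA, and RNA was taken 48 hr later. The esiRNAs were directed against *Mbd3* in *Mbd3* KD cells and against *EGFP*, a gene that these cells lack, in control cells. The other 8 arrays held 2 each of *Dnmt1* KD, *Tet1* KD, *Mbd2* KD and *Chd4* KD ES cells. The KD was transient and was made in 1 dish of cells per sample, so the arrays show cells shortly after loss of the mRNA and not a stable knockout line.

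Mbd3 is a methyl-CpG binding domain protein that joins the NuRD complex, in which Chd4 (or a relative) moves nucleosomes and Hdac1 and Hdac2 remove acetyl groups from histones. Mbd2 occupies the same place in a separate form of the complex. NuRD is best known as a repressor, although it is found at active promoters and enhancers as well, and in ES cells it is needed for an orderly exit from self-renewal.

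Values below are levels, the log2 of an array's processed signal over its own 75th percentile, and differences between levels are log2 fold changes. The 4 arrays had 75th percentiles between 1810.5 and 2413.9, and between 76.9% and 91.7% of probes were well above background. *Mbd3* KD replicate 1 and *EGFP* KD replicate 1 shared slide 1, whereas *EGFP* KD replicate 2 lay on slide 2 and *Mbd3* KD replicate 2 on slide 3. Over the 29547 genes tested, arrays of different groups on a shared slide had Pearson's r between 0.971 and 0.994 (17 pairs, all 3 slides), and the 5 replicate pairs on different slides had r between 0.939 and 0.978. *Mbd3* KD replicate 2 had r = 0.987 with *Dnmt1* KD replicate 2 of its own slide and r = 0.959 with *Mbd3* KD replicate 1. The slide-1 pair is therefore given separately for the called genes as a whole. Where a fit with the slide as a block ended the call of a named gene, its adjusted p in that fit is given as the block adjusted p. Of 8 ES cell markers, 7 were well above background on all 4 arrays, with *Pou5f1* (which encodes Oct4) between 4.46 and 5.10 and saturated on each, and *Nanog* alone lay near the floor of -4.86. Outside the 4 arrays, the library labelled *Tet1* KD replicate 1 had a *Tet1* level of 2.05, beside 2.14 and 2.00 in control cells and 0.25 in replicate 2. The library labelled *Mbd2* KD replicate 1 had a *Tet1* level of 0.28, and its *Mbd2* probes were at -0.85 and -1.20, beside -0.71 and -0.83, and -0.83 and -1.09, in control cells. Both arrays enter the estimate of the spread, and without the *Tet1* KD and *Mbd2* KD arrays limma called 0 genes, with 2464 at an unadjusted p under 0.05.

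*Mbd3* mRNA was measured first. Its level was 4.33 and 4.49 in *EGFP* KD cells and 1.34 and 1.56 in *Mbd3* KD cells. Both *Mbd3* KD arrays lay far below both controls, and the difference of -2.96 on the log2 scale (standard error, SE, 0.14, limma adjusted p = 0.0039) was a 7.78-fold decrease. The second *Mbd3* probe, which is dimmer, gave 1.77 and 1.28 in control cells and -1.82 and -1.28 in *Mbd3* KD cells, a difference of -3.07. On slide 1 alone the brighter probe fell by 2.99. In such bulk RNA, fewer cells that carry an mRNA and less of it in each cell cannot be told apart.

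No other NuRD subunit passed the test. Of 16 subunits and partners listed, *Chd3* was not on the array, 15 were tested, 1 (*Mbd3*) fell and 14 were not called. *Chd4*, the remodelling ATPase, differed by 0.11 (SE 0.24, limma adjusted p = 0.96), and *Mbd2*, the alternative methyl-CpG binding subunit, had 0.15 (SE 0.17, limma adjusted p = 0.85). Neither gene's *Mbd3* KD arrays separated from the controls. The farthest from 0 were *Chd5*, a relative of *Chd4* best known from neurons, at 0.84 (limma adjusted p = 0.39) and *Kdm1a*, the Lsd1 histone demethylase, at 0.43 (limma adjusted p = 0.76). The histone deacetylases *Hdac1* (0.37) and *Hdac2* (-0.31) were also not called. The median over the list was 0.11 beside -0.03 over all genes. Of 14 DNA methylation and hydroxymethylation factors, 14 were tested and 0 were called by limma. *Uhrf1*, which brings Dnmt1 to replicating DNA, was at -0.52 (limma adjusted p = 0.61) and *Tet2*, a 5-methylcytosine oxidase, at -0.22 (limma adjusted p = 0.86). *Dnmt3b*, a de novo methyltransferase, was at -0.41 (limma adjusted p = 0.21). Its probe was saturated on 1 control array, and its dimmer, unsaturated probes gave -0.374 and -0.365.

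**Figure D1:**
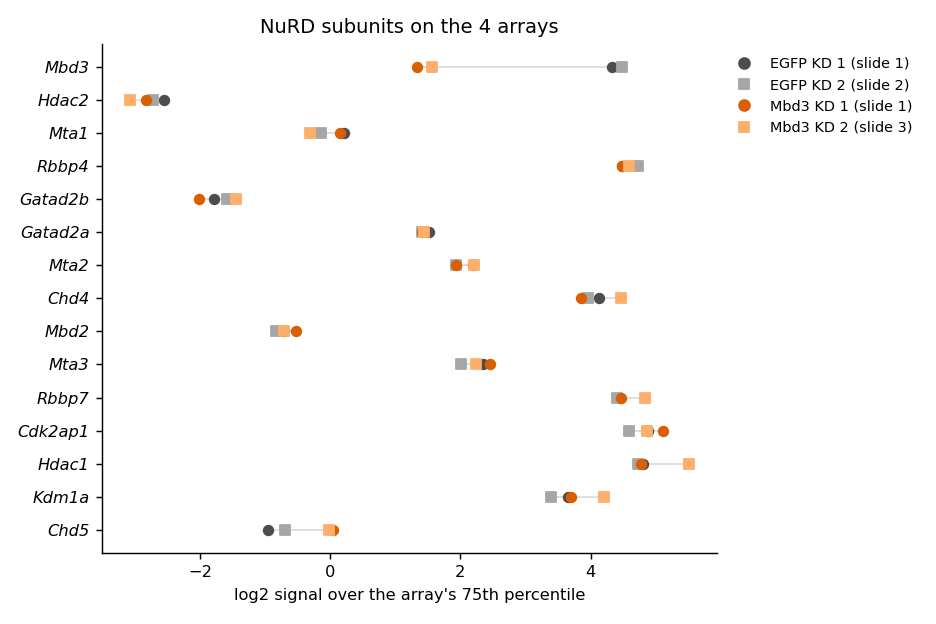
Level (log2 signal over the array's 75th percentile) of the 15 NuRD subunits tested on each of the 4 arrays, ordered by log2 fold change, with circles for slide 1 and squares for the replicate 2 arrays. *Mbd3* is the row in which the *Mbd3* KD arrays (1.34 and 1.56) stand far from the controls (4.33 and 4.49). Levels of different genes come from different probes and are not comparable.

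Over all genes, 225 of 29547 (0.761%) had a limma adjusted p under 0.05 and are termed called. Of these, 140 (0.474%) were higher and 85 (0.288%) were lower in *Mbd3* KD cells. The calls included 208 genes with a symbol, 133 higher and 75 lower, and 138 of the 225 differed at least 2-fold. The median called rise was 1.20 (2.30-fold) and the median called fall was -1.03 (2.04-fold), beside a median of -0.03 over all genes. In each of the 225 the 2 *Mbd3* KD values lay on 1 side of both controls, as did those of 30.1% of all genes tested. The study's text calls the replicates biological, and the labels do not say how they were separated. The p-values measure the spread between these 12 samples, and the number of arrays limits their precision. With the slide as a block, 57 genes were called, 46 of them among the 225, and all 225 kept their direction in that fit. Of the 37 called genes that the rule for named genes picked, 16 were also called with the block and 21 were not. In a fit of the 4 arrays alone, limma called 0 genes and 2368 had an unadjusted p under 0.05, beside 2853 in the 12-array fit. Under quantile normalization 14 were higher and 4 lower, and under normexp background correction 1 was higher and 1 lower.

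The 2 pairs of arrays that share no array (replicate 1 against replicate 1, and replicate 2 against replicate 2) give the size of each change apart. The calls used all 4 of these arrays and favour genes whose replicates are close. Like sizes in the 2 pairs are therefore no independent check of the calls. For the genes called higher, the median difference was 1.19 in the slide-1 pair and 1.19 in the other pair. For those called lower it was -1.04 and -1.07. Beyond these genes the pairs spread in different directions. The 277 genes at least 2 higher in the slide-1 pair and within 0.5 of 0 in the other had median levels of -4.32, -3.81 and -3.94 on the *EGFP* KD, *Dnmt1* KD and *Mbd2* KD arrays of slide 1, and between -2.65 and -1.44 on the other 9 arrays. The 1259 genes at least 1.5 lower in the other pair alone had median levels of -3.95 on *Mbd3* KD replicate 2 and -4.06 on *Dnmt1* KD replicate 2 of slide 3. They had -3.06 and -2.94 on the other 2 arrays of slide 3 and between -2.56 and -1.98 on the 8 arrays of slides 1 and 2. None of these genes was called.

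**Figure D2:**
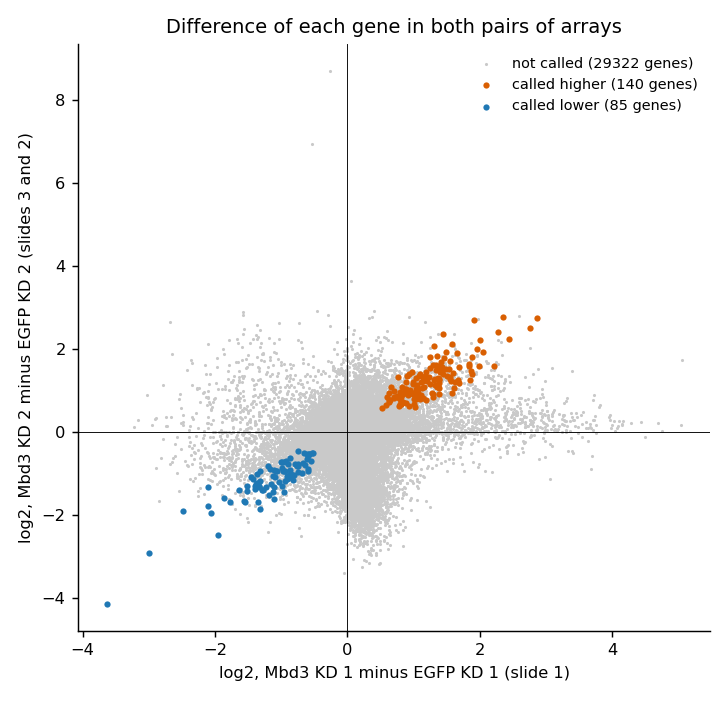
Log2 difference of each of the 29547 genes in the slide-1 pair (x axis) and in the pair of replicate 2 arrays on slides 3 and 2 (y axis), with the 140 genes called higher and the 85 called lower in colour. Called genes lie away from 0 on both axes, although the calls used these same arrays, and the arms of grey points are genes that differed in 1 pair only.

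The genes that rose most came from several functions. The first was *Slc38a5*, a sodium-coupled neutral amino acid transporter, at -1.36 and -1.14 in control cells and 1.496 and 1.6 in *Mbd3* KD cells. The difference was 2.80 on the log2 scale (SE 0.15, limma adjusted p = 0.0039), or 6.96-fold. It was the only one of 28 tested amino acid transporters that was called. *Slc6a13*, a GABA transporter, had 1.51 (limma adjusted p = 0.61) and *Slc7a6*, a subunit of a cationic amino acid exchanger, had 1.09 (limma adjusted p = 0.21). The median of that list was 0.10.

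*Ppp2r2c*, a regulatory B subunit of protein phosphatase PP2A, and *Cldn7*, a claudin of tight junctions, belong to the 10 loci that the study followed by ChIP. *Ppp2r2c* was at -1.53 and -1.36 in control cells and 0.90 and 0.87 in *Mbd3* KD cells. It rose 5.04-fold (log2 fold change 2.33, SE 0.16, limma adjusted p = 0.0055), and none of the other 15 PP2A subunits tested was called. *Cldn7* was at 0.25 and 0.01 in control cells and 1.69 and 2.37 in *Mbd3* KD cells. It rose 3.73-fold (log2 fold change 1.90, SE 0.27, limma adjusted p = 0.036, block adjusted p = 0.0549), and its *Mbd3* KD replicates differed by more than its controls. Of the other loci, *Gpr83* did not pass the filter on dim probes and 7 were not called. The largest difference among these 7 was that of *Farp1*, which encodes a guanine nucleotide exchange factor, at 1.35 (limma adjusted p = 0.24). A dimmer *Farp1* probe had -0.121, so its probes disagree. The sources used here do not say how these loci were chosen.

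The bases upstream of 3 start sites are shown because these genes changed much and differ in CpG content. They are RefSeq promoters (GRCm38.p6), 250 bases ending just before the start, 5′ to 3′ on the gene's strand, with each CpG in capitals.
Slc38a5, chrX:8271131-8271380, + strand: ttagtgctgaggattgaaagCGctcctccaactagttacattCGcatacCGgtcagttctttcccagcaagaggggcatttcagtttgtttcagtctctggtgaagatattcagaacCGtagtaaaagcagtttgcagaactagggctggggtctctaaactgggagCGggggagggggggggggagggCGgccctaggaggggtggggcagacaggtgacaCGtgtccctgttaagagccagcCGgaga
Ppp2r2c, chr5:36868260-36868509, + strand: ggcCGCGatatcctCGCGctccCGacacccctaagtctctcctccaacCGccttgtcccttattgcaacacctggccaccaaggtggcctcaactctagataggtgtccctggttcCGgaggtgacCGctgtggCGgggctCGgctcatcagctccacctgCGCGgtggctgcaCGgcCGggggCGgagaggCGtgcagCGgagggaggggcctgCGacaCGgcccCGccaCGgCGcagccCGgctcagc
Ccno, chr13:112987552-112987801, + strand: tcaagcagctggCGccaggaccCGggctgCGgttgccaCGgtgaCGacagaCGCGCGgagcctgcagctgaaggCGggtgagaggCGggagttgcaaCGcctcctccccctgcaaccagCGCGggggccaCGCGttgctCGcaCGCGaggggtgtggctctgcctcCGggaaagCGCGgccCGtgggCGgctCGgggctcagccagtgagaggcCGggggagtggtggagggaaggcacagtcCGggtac
*Ppp2r2c*, which rose, and *Ccno*, which fell, had 23 and 26 CpGs there, and *Slc38a5*, which rose more than *Ppp2r2c*, had 8.

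Among the other large rises, *S100a14*, a calcium-binding S100 protein, went from -3.47 and -3.17 to -0.71 and -0.67 (log2 fold change 2.63, limma adjusted p = 0.015). It was the only one of 15 tested S100 genes that was called. *Amn*, which encodes amnionless, the membrane anchor of the cubilin endocytic receptor, went from -2.21 and -2.16 to 0.14 and 0.60 (2.56, limma adjusted p = 0.0039). Its partner *Cubn* had -1.70 (limma adjusted p = 0.11), and the list of primitive endoderm genes, 18 tested, held no other call and had a median of -0.07. *Padi4*, which converts arginine to citrulline in histones and other proteins, went from -3.12 and -3.25 to -0.85 on both arrays (2.34, limma adjusted p = 0.0039). A second *Padi4* probe, brighter in control cells at -2.49 and -2.60, was at -2.02 and -2.28 in *Mbd3* KD cells, a difference of only 0.40, so the probes disagree on the size. *Napsa*, an aspartic protease, rose by 2.29 (block adjusted p = 0.0525), *Nfe2*, a bZIP transcription factor known from blood cells, by 1.97, *Slc45a1*, a sugar transporter, by 1.90 and *Gsn*, the actin-severing protein gelsolin, by 1.84 (block adjusted p = 0.0525), with limma adjusted p between 0.0098 and 0.015. The rule for named genes required both *Mbd3* KD values of these 7 genes to lie above both controls.

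A few antiviral genes rose. *Oasl1*, an oligoadenylate synthetase-like antiviral protein, went from -2.47 and -2.43 to -0.48 and -0.21 (2.11, limma adjusted p = 0.0055). *Rsad2*, the antiviral enzyme viperin, was at the floor of -4.86 on both control arrays and at -3.03 and -3.27 in *Mbd3* KD cells (limma adjusted p = 0.011, block adjusted p = 0.0574), so its size depends on the floor. *Xaf1*, an interferon-inducible partner of the apoptosis inhibitor XIAP, was named for its size and is not on the list. It went from -0.77 and -0.60 to 1.28 and 1.33 (1.99, limma adjusted p = 0.037, block adjusted p = 0.0948). Of 30 interferon-stimulated genes, 24 were tested, 2 rose, 22 were not called and the median was -0.04. Over all genes tested, 0.474% rose. Of the 24, 9 had a positive and 12 a negative difference, beside 41.6% and 53.6% of all genes tested. *Ifitm3*, the lowest of the list, had -0.945 and was not called. *Gbp2*, a guanylate-binding protein, had 1.07 (limma adjusted p = 0.77), and *Isg15*, an interferon-induced ubiquitin-like protein, had -0.49 (limma adjusted p = 0.82).

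The promoters of *Rsad2* and *Oas1c* are printed because they hold the motif GAAA, any 2 bases and again GAAA, the core of the element to which interferon regulatory factors bind, on one strand or the other (in capitals, 250 bases before the RefSeq start, GRCm38.p6). *Oas1c*, an oligoadenylate synthetase gene that is not on the list, was picked after its values were seen and rose by 1.39 (limma adjusted p = 0.032, block adjusted p = 0.0623).
Rsad2, chr12:26456453-26456702, - strand: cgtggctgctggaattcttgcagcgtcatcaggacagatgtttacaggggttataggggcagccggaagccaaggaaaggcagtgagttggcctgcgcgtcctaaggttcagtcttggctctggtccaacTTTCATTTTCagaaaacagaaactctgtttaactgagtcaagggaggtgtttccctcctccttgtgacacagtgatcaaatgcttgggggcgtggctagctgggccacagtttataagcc
Oas1c, chr5:120812515-120812764, - strand: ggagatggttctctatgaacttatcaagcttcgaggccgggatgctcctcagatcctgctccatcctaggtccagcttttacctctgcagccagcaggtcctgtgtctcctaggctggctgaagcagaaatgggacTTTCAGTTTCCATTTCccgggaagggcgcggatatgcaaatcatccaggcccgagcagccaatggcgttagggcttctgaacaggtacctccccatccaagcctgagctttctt
The motif was in 2.98% of all 32851 promoters of that length, in 6 of 102 promoters of genes called higher and in 2 of 64 of genes called lower. It was in 10 of 21 promoters of interferon-stimulated genes tested, most of them not called. It was not found in these windows of *Oasl1* and *Xaf1*, which reach past the first base of the RefSeq gene.

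**Figure D3:**
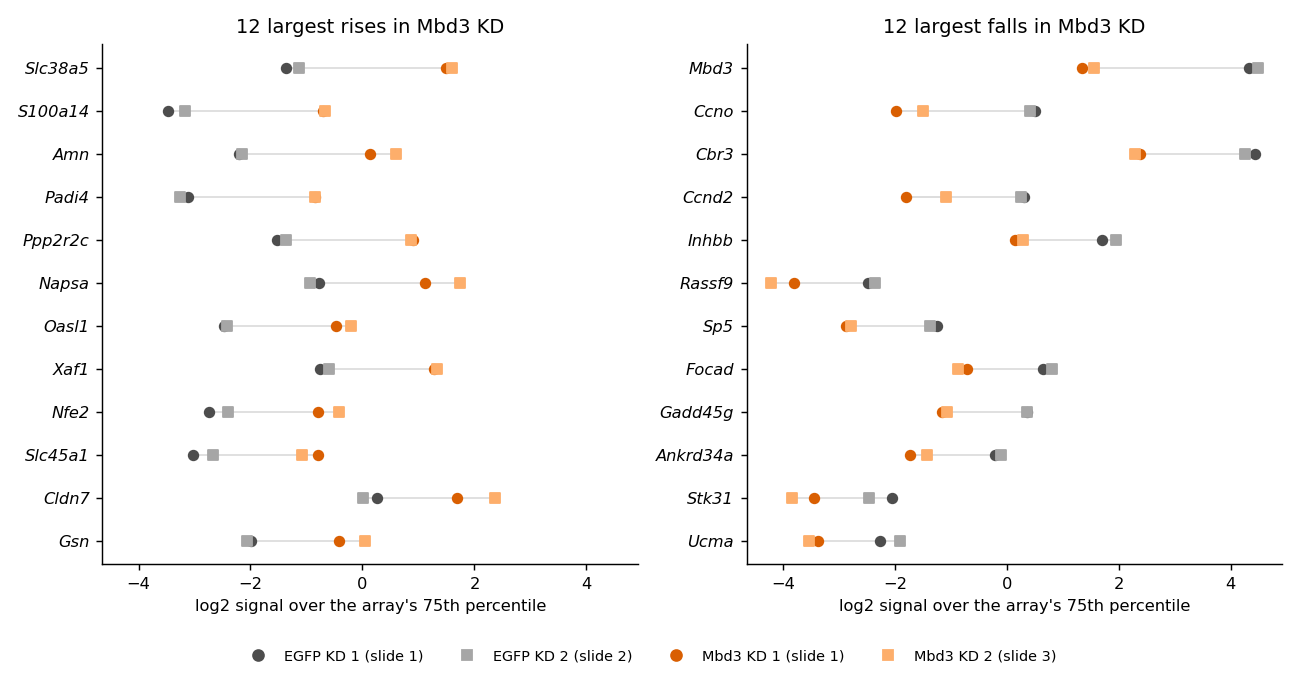
Level (log2 signal over the array's 75th percentile) of the 12 largest rises (left) and 12 largest falls (right) among called genes measured on all 4 arrays, with the controls in grey and *Mbd3* KD in orange. In each row the 2 *Mbd3* KD points lie on 1 side of both controls, as the choice of genes required, and levels of different genes are not comparable.

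Among falls measured on all 4 arrays, a cyclin gene followed *Mbd3*. *Ccno*, a cyclin known from cells with many cilia, went from 0.50 and 0.41 in control cells to -1.98 and -1.49 in *Mbd3* KD cells (log2 fold change -2.19, SE 0.30, limma adjusted p = 0.035, block adjusted p = 0.0525), and it was called in 10 of 21 alternative settings. Another cyclin, *Ccnd2*, a D-type cyclin that drives entry into S phase, went from 0.30 and 0.25 to -1.80 and -1.09 (-1.72, SE 0.26, limma adjusted p = 0.040). The rule for named genes required groups that do not overlap, and in both genes the *Mbd3* KD replicates differed by more than the controls did. Of 28 tested cyclins and cell cycle inhibitors, 26 were not called and the median was -0.07. *Mki67*, the Ki-67 proliferation antigen, had -0.07 (limma adjusted p = 0.96), *Ccnd1*, another D-type cyclin, had -0.04 (limma adjusted p = 1.0) and *Cdk6*, a kinase partner of D-type cyclins, had 0.82 (limma adjusted p = 0.83).

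*Cbr3*, a carbonyl reductase, was among the brightest genes to fall, from 4.44 and 4.25 to 2.38 and 2.29 (-2.01, SE 0.13, limma adjusted p = 0.0051). It was the only call among 22 tested Nrf2 antioxidant genes, whose median was -0.04. *Gsta3*, a glutathione transferase, had -0.82 (limma adjusted p = 0.24) and *Me1*, malic enzyme, had 0.62 (limma adjusted p = 0.39).

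Some falls lay in signalling pathways of the early embryo. *Inhbb*, the beta B subunit of activin and inhibin, went from 1.71 and 1.95 to 0.14 and 0.28 (-1.62, SE 0.12, limma adjusted p = 0.0055). The other 21 tested genes of the Nodal, Lefty and Activin pathway were not called, *Nodal* itself having -0.34 (limma adjusted p = 0.73) and *Lefty1*, a Nodal antagonist, 0.73 (limma adjusted p = 0.37). *Bambi*, a pseudoreceptor that damps such signals, had 2.30 (limma adjusted p = 0.45) from values of -4.86 and -3.69 in control cells and -1.14 and -2.80 in *Mbd3* KD cells.

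*Sp5*, a zinc finger factor induced by Wnt signals, went from -1.24 and -1.37 to -2.88 and -2.78 (-1.52, SE 0.13, limma adjusted p = 0.0098). *Fzd10*, a Wnt receptor of the frizzled family, went from 0.40 and 0.37 to -0.94 and -0.97 (-1.34, SE 0.11, limma adjusted p = 0.0079, block adjusted p = 0.0525). Both genes fell on each array. Of the 32 tested Wnt pathway genes the other 30 were not called, 21 of the 32 had a negative difference, as did 53.6% of all genes tested, and the median was -0.13. *Lef1*, a transcription factor at the end of the pathway, had -1.39 (limma adjusted p = 0.14), and *Axin2*, a widely used Wnt target, had -0.76 (limma adjusted p = 0.68).

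*Smad6*, an inhibitor of BMP signalling, fell by 0.83 on the log2 scale (limma adjusted p = 0.028, block adjusted p = 0.0826), and the other 19 tested BMP and Id genes were not called. They included the homeobox gene *Msx1* at 1.03 (limma adjusted p = 0.77) and *Id4*, an inhibitor of bHLH factors, at -0.93 (limma adjusted p = 0.39). *Chrd*, the BMP antagonist chordin, had -0.90 (limma adjusted p = 0.82), with 0.108 in the slide-1 pair and -1.912 in the other. None of 24 FGF-ERK genes and none of 19 LIF and Stat3 genes was called by limma. *Myc*, a growth-promoting transcription factor, had -2.26 (limma adjusted p = 0.087), from 2.09 and 0.88 in control cells to -0.76 and -0.79 in *Mbd3* KD cells. Both *Mbd3* KD arrays lay below both controls, which themselves differed. *Dusp6*, a phosphatase that damps ERK, had -0.70 (limma adjusted p = 0.17) and *Fosl1*, an AP-1 subunit, had 0.76 (limma adjusted p = 0.87). *Jak2*, the kinase of cytokine receptors, had 0.95 and *Osmr*, the oncostatin M receptor, had -0.90 (limma adjusted p = 0.82 for both). *Fosl1* had 1.334 in the slide-1 pair and 0.178 in the other, and *Osmr* had 0.13 and -1.929.

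The remaining large falls had no common list. *Rassf9*, a Ras association domain protein, fell by 1.58 (block adjusted p = 0.0742), *Focad*, focadhesin, by 1.52 (block adjusted p = 0.0525), *Gadd45g*, a stress and growth arrest gene, by 1.48 (block adjusted p = 0.0525), *Ankrd34a*, an ankyrin repeat protein, by 1.42 and *Ucma*, a matrix protein of cartilage, by 1.36 (block adjusted p = 0.111), with limma adjusted p between 0.011 and 0.044. The largest called fall of all, *Wt1*, was picked after its values were seen. This zinc finger transcription factor went from -0.54 and -0.64 to -4.17 and -4.79 (-3.89, SE 0.36, limma adjusted p = 0.011), and only 1 of the 2 *Mbd3* KD arrays was well above background.

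Against control cells, pluripotency genes did not pass the test. Of 26 core and naive pluripotency genes, 26 were tested and 0 were called by limma, with 12 positive and 14 negative differences and a median of -0.04. *Sox2*, a core pluripotency factor, had 0.41 (limma adjusted p = 0.71). *Pou5f1*, *Zfp42* and *Esrrb* were saturated on all 4 arrays, and no fold is given. *Nanog* has 1 probe on the array, which lay near the floor (-4.582 and -4.099 in control cells, -4.525 and -4.86 in *Mbd3* KD cells). A change in *Nanog* could therefore not be judged. Nearest to the threshold were *Gbx2*, a homeobox gene downstream of LIF, and *Dppa3*, the maternal factor Stella. *Gbx2* went from 1.48 and 1.15 to -0.09 and -0.38 (-1.55, limma adjusted p = 0.055). *Dppa3* went from 0.51 and 0.12 to -0.63 and -0.73 (-0.99, limma adjusted p = 0.058). Both lay below both controls on each *Mbd3* KD array. Against the mean of the other 4 KDs, *Dppa3* was the only 1 of the 26 called (-0.93, limma adjusted p = 0.034). It was also called there with the slide as a block. *Tbx3*, a T-box factor of naive cells, had 0.78 (limma adjusted p = 0.55).

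Few lineage genes were called. Of 20 trophectoderm genes, *Tfap2c*, an AP-2 factor, rose from 1.84 and 2.15 to 2.86 and 2.74 (0.80, limma adjusted p = 0.044, block adjusted p = 0.0766). *Gata3*, a zinc finger factor of the same lineage, fell from -3.88 and -4.12 to the floor, where it was not well above background, which gives a fall of at least 1.82-fold (limma adjusted p = 0.035, block adjusted p = 0.0954). The keratin *Krt19* (1.504, limma adjusted p = 0.24) and *Hand1*, a bHLH factor (-1.05, limma adjusted p = 0.25), were not called. Neither was *Plac1*, a placental gene (-0.92, limma adjusted p = 0.86), which had 0.63 in the slide-1 pair and -2.464 in the other. The list's median was 0.19. In primitive endoderm, *Gata4*, a lineage-defining factor, had 1.36 (limma adjusted p = 0.17). None of 18 tested genes of primed epiblast and early mesoderm and none of 20 neural genes was called by limma. *Evx1*, an early mesoderm homeobox gene, had -1.49 (limma adjusted p = 0.36) and *Foxd3*, a forkhead factor, -1.30 (limma adjusted p = 0.17). The neural list had a median of -0.24, with *Neurog3*, a proneural factor, at -1.20 (limma adjusted p = 0.45) and *Zic1*, a zinc finger factor, at 0.93 (limma adjusted p = 0.30), and on slide 1 its median was 0.00. Of 34 tested *Hox* genes 0 were called by limma. *Hoxc13* (1.40) and *Hoxd9* (1.36) lay highest and *Hoxc4* (-1.25) lowest, with limma adjusted p between 0.42 and 0.83. In the slide-1 pair and in the other pair, *Hoxc13* had 2.768 and 0.031, *Hoxd9* 1.439 and 1.275, and *Hoxc4* 0.429 and -2.925.

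The germline, imprinted and 2-cell-stage lists held 3 calls. Of 20 tested germline genes silenced by promoter methylation, 2 fell and 0 rose. Over all genes tested, 0.288% fell and 0.474% rose. *Stk31*, a kinase of germ cells, fell from -2.04 and -2.46 to -3.44 and -3.84 (-1.39, limma adjusted p = 0.041, block adjusted p = 0.0618). *Stag3*, the meiotic cohesin subunit, fell from 0.21 and 0.15 to -0.33 and -0.35 (-0.52, limma adjusted p = 0.041, block adjusted p = 0.0945). *Zcwpw1*, a meiotic histone reader, had -0.97 (limma adjusted p = 0.064), and *Tex11*, a meiotic crossover factor, had 0.73 (limma adjusted p = 0.14). Of 34 tested imprinted genes 1 was called, *Slc22a18*, an organic cation transporter of the *Kcnq1* cluster, at -0.24 and -0.37 in control cells and 0.77 and 0.53 in *Mbd3* KD cells (0.96, limma adjusted p = 0.028). *Peg13*, a non-coding RNA gene (1.44), the growth factor *Igf2* (-1.03) and the zinc finger gene *Plagl1* (-1.03) had larger differences. Their limma adjusted p lay between 0.59 and 0.82. The slide-1 pair and the other pair gave 2.841 and 0.038 for *Peg13* and 0.061 and -2.121 for *Igf2*. Dimmer *Plagl1* probes gave 0.047, 0.766 and 0.381, so its probes disagree on the direction. Of 16 tested 2-cell-stage genes 0 were called by limma, with the lowest median of any list at -0.44, beside -0.13 on slide 1. *Zscan4f*, which marks a rare 2-cell-like state, had -1.59 (limma adjusted p = 0.30) and *Tmem92*, a membrane protein, -1.34 (limma adjusted p = 0.36). *Usp17lb*, a deubiquitinase, had -1.74 (limma adjusted p = 0.10), with *Mbd3* KD values at or near the floor (-4.86 and -4.75). Members of these families are near-identical copies whose probes may share signal.

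**Figure D4:**
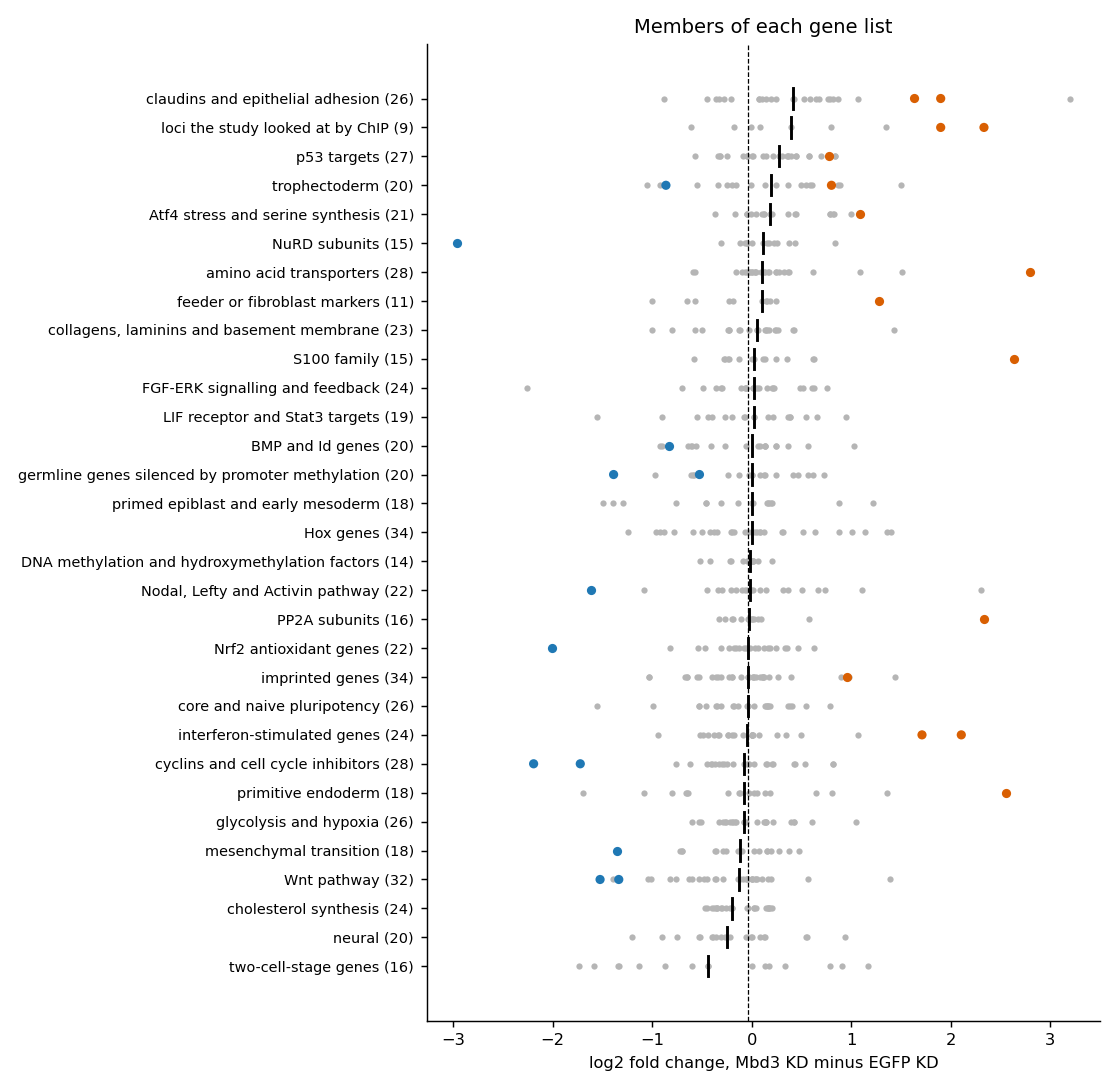
Log2 fold change (*Mbd3* KD minus *EGFP* KD) of every tested member of the 31 gene lists, with the number tested in brackets, called rises in orange, called falls in blue, other members in grey, a black bar at the list's median and a dashed line at the median of all genes (-0.03). Medians run from -0.44 to 0.42, and 11 lists hold no called member.

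Epithelial genes had the highest median of any list. Of 26 claudins and epithelial adhesion genes, 26 were tested, 2 rose, 0 fell and 20 had a positive difference, with a median of 0.42 (0.28 on slide 1, 0.34 with the slide as a block). Over all genes tested 0.474% rose and 41.6% had a positive difference. Besides *Cldn7*, *Marveld2*, the tricellulin of junctions between 3 cells, rose from -3.94 and -3.54 to -2.06 and -2.15 (1.64, limma adjusted p = 0.040, block adjusted p = 0.116). The adhesion molecules *Cdh1*, E-cadherin (0.64, limma adjusted p = 0.17), and *Epcam* (0.52, limma adjusted p = 0.58) were not called, and neither were *Cldn6*, a claudin (0.78, limma adjusted p = 0.056), or *Krt8*, a simple epithelial keratin (0.87, limma adjusted p = 0.38). *Pkp2*, a desmosome protein, had 3.20 (limma adjusted p = 0.76) with 1 control array at the floor (2.50 and -4.86 in control cells, 1.95 and 2.08 in *Mbd3* KD cells), and without *EGFP* KD replicate 2 its difference was -0.48. *Vim*, vimentin, the intermediate filament of mesenchymal cells, fell from 4.26 and 4.30 to 3.07 and 2.77 (-1.36, SE 0.14, limma adjusted p = 0.017, block adjusted p = 0.0708). The other 17 mesenchymal transition genes were not called, among them *Snai1*, a repressor of E-cadherin (-0.72, limma adjusted p = 0.16), and *Thbs1*, thrombospondin (-0.71, limma adjusted p = 0.71), and the list's median was -0.12.

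*Thy1*, a surface glycoprotein of fibroblasts, neurons and T cells, rose from 1.70 and 1.80 to 2.999 and 3.052 (1.28, SE 0.12, limma adjusted p = 0.011). Of the 8 fibroblast markers checked, *Postn* was at the floor on all 4 arrays and the collagen *Col1a1* lay between -4.41 and -4.00. *Dcn* and *Lum*, matrix proteoglycans, had differences of -0.65 (limma adjusted p = 0.85) and -1.003 (limma adjusted p = 0.82). In the slide-1 pair they had 0.194 and -0.096, and in the other pair -1.485 and -1.91. The summed level of the 8 markers was 2.41 and 2.55 in control cells and 3.33 and 3.26 in *Mbd3* KD cells. Most of it came from *Thy1* itself, and its part in the other results was not tested. None of 23 tested collagens, laminins and basement membrane genes was called by limma, *Fbln2*, a fibulin, having 1.43 (limma adjusted p = 0.28) and *Lamb1*, a laminin, -0.80 (limma adjusted p = 0.41).

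The p53 and Atf4 lists held 1 call each. Of 27 p53 targets, 27 were tested and 19 had a positive difference, as did 41.6% of all genes tested. The median was 0.27, beside -0.03 over all genes. The 1 called, *Zmat3*, an RNA-binding growth regulator, went from 1.33 and 1.15 to 1.95 and 2.09 (0.78, limma adjusted p = 0.046, block adjusted p = 0.0983), whereas *Cdkn1a*, which encodes p21, had 0.14 (limma adjusted p = 0.83), *Btg2*, an antiproliferative gene, 0.84 (limma adjusted p = 0.077) and *Trp73*, a relative of p53, 0.84 (limma adjusted p = 0.82). Of 21 tested genes of the Atf4 response 1 was called. It was *Nupr1*, a stress-induced chromatin protein, at 1.58 and 1.51 in control cells and 2.63 and 2.64 in *Mbd3* KD cells (1.09, limma adjusted p = 0.039, block adjusted p = 0.0894). *Atf3*, a stress-induced bZIP factor, had 1.00 (limma adjusted p = 0.073) and *Ddit4*, an mTOR inhibitor, 0.83 (limma adjusted p = 0.36). None of 24 cholesterol synthesis genes was called by limma, and they ranged from -0.47 to 0.20 with a median of -0.20. None of 26 glycolysis and hypoxia genes was called by limma, the largest being *Vegfa*, an angiogenic factor, at 1.05 (limma adjusted p = 0.42).

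To ask which genes set *Mbd3* KD cells apart without use of the *EGFP* KD arrays, the *Mbd3* KD arrays were compared with the mean of the other 4 KDs in the same limma fit. This called 243 genes (0.822%), of which 116 (0.393%) were higher and 127 (0.43%) were lower in *Mbd3* KD cells. *Slc38a5* was again the largest rise, at 1.55 in *Mbd3* KD cells and -1.12 over the other KDs (2.67, SE 0.12, limma adjusted p = 0.0012). *Napsa* (2.50, limma adjusted p = 0.0043), *Amn* (2.02, limma adjusted p = 0.0043) and *Xaf1* (2.00, limma adjusted p = 0.017, block adjusted p = 0.0701) came next. Among falls measured on all 4 arrays *Mbd3* was the largest (-2.86, limma adjusted p = 0.0011), with *Usp17lb* (-1.78, limma adjusted p = 0.046, block adjusted p = 0.104), *Ccno* (-1.77, limma adjusted p = 0.030, block adjusted p = 0.0554) and *Chst7*, a sulphotransferase (-1.52, limma adjusted p = 0.0098, block adjusted p = 0.0568). The size for *Usp17lb* depends on the floor, at or near which it lay on both *Mbd3* KD arrays. *Cbr3* differed by -0.95 from the other KDs and by -2.01 from control cells, and *Inhbb* by -0.78 and -1.62. The mean over the other KDs hides *Chd4* KD, which shares the control arrays and differed from them by -3.33 for *Cbr3* and -2.64 for *Inhbb* (limma adjusted p = 0.00044 for both). In *Chd4* KD the differences from control cells were 1.602 for *Amn* (limma adjusted p = 0.0031), 0.80 for *Slc38a5* (limma adjusted p = 0.041) and -0.58 for *Napsa* (limma adjusted p = 0.25). Of the 225 genes called against control cells, 140 were called in this comparison too, although both comparisons use the *Mbd3* KD arrays.

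Slides 1 and 3 each hold an array labelled *Mbd3* KD, one labelled *Dnmt1* KD and one labelled *Mbd2* KD, which gives a difference within each slide. The array labelled *Mbd2* KD on slide 1 is the one with a *Tet1* level of 0.28. *Slc38a5* exceeded the mean of the *Dnmt1* KD and *Mbd2* KD arrays by 2.88 on slide 1 and by 2.79 on slide 3. *Amn* exceeded it by 2.10 and 2.63, and *Napsa* by 1.95 and 2.59. *Mbd3* differed from it by -2.89 and -2.81, and *Ccno* by -1.99 and -2.04. All 225 called genes had the direction of their call on both slides, although the calls rest in part on the same *Mbd3* KD arrays.

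Of the 140 genes called higher, 87.9% lay below the 75th percentile of the array in control cells, beside 71.8% of all genes tested. Their median control level was -1.73, close to the -1.84 of all genes tested. Genes called lower had a median control level of -0.39, and 52.9% of the 85 lay below that percentile. Of 133 called rises with a symbol 102 had a RefSeq promoter, and 40.2% of those were rich in CpG (observed over expected CpG of at least 0.6 and GC of at least 50% over the 250 bases), beside 46.3% of 15237 genes tested. Of the 64 called falls with a promoter, 51.6% were rich in CpG. Among genes below that percentile in control cells the shares were 42.9% of 91 called rises, 46.9% of 32 called falls and 36.2% of all genes tested. Among genes at or above it they were 18.2% of 11 called rises, 56.2% of 32 called falls and 66.0% of all genes tested. No test was made of these shares.

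The calls depended on the fit. Among 21 alternative settings the count against control cells lay within 1.5 times of 225 in 5. *Mbd3* and *Slc38a5* were called in 19 of the 21, *Amn*, *Ppp2r2c*, *Oasl1* and *Cbr3* in 18, and *Padi4*, *Nfe2* and *Inhbb* in 17. *Stag3* and *Zmat3* were called in 6 and *Tfap2c*, *Nupr1*, *Stk31* and *Ucma* in 7. None of the genes given in this paragraph changed direction under any of the settings. Without 1 of the arrays compared the count moved by more than 1.5 times in each case. It was 28 without *EGFP* KD replicate 1, 83 without *EGFP* KD replicate 2, 29 without *Mbd3* KD replicate 1 and 79 without *Mbd3* KD replicate 2. Of those, 17, 36, 25 and 44 were among the 225.

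**Figure D5:**
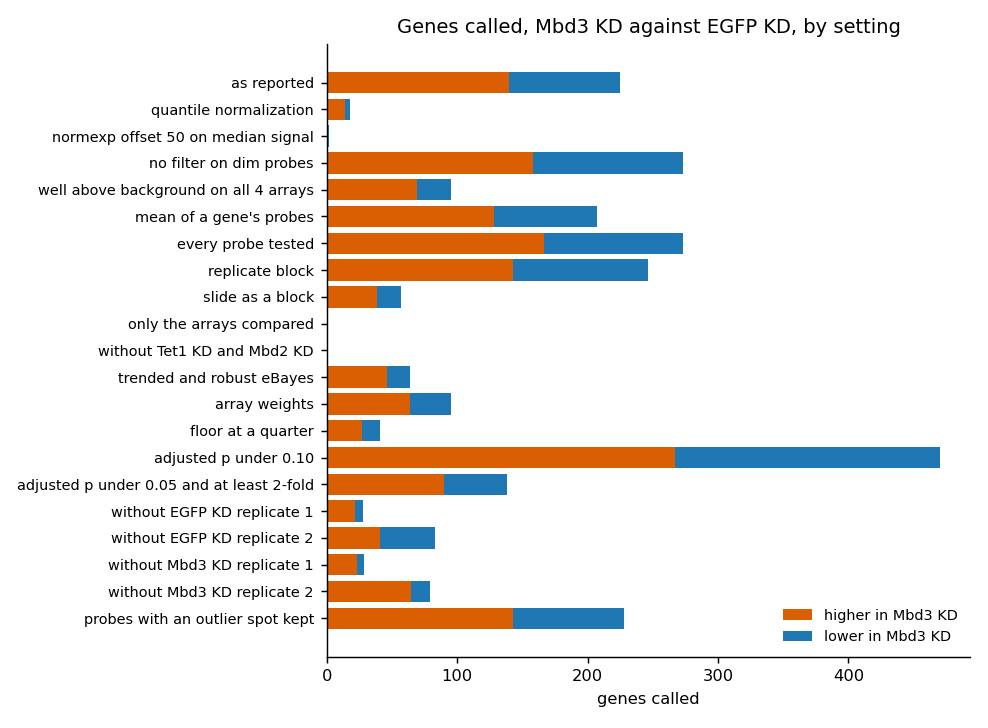
Number of genes called in *Mbd3* KD against *EGFP* KD under each setting, with rises in orange and falls in blue. The count is 225 as reported, 470 at an adjusted p under 0.10 and 0 in a fit of the 4 arrays alone, and the authors' deposited table (3364 calls among 7425 genes) is not drawn.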

How the data were processed

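The authors labelled RNA with Cy3, hybridised it to one-colour Agilent 4x44K mouse arrays and read the scans with Agilent Feature Extraction 10.7.1.1, per the submitters' processing notes. The deposited scanner files hold an intensity per spot, already background-corrected by the scanner software. A further table deposited by the authors holds log2 ratios against *EGFP* KD, whose exact scale is not given in the sources used here and which was used only as an alternative. No column of per-sample values was left unmapped (0).

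Each intensity was divided by its array's 75th percentile over spots that are not controls, floored at 0.0344 (-4.86 on the log2 scale) and taken to log2. Outlier spots were left out and spots of a probe were averaged, which gave 39429 probes. Probes were kept if 1 or more groups had both arrays well above background, and the brightest probe stood for a gene (5156 genes had more than 1), which left 29547 genes, 19219 with a symbol. Accessions were named through RefSeq tables, which named 71.4% of spots. All 12 arrays in 6 groups were fitted with limma 3.58.1 in R 4.3.3 (lmFit and eBayes, 7.04 degrees of freedom in all), with Benjamini-Hochberg adjustment over all genes and a threshold of 0.05. Scripts were tested on simulated data.

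Named genes are *Mbd3*, the 12 largest called rises and falls with a symbol measured on all 4 arrays, the 4 largest against the other KDs, called members of 31 gene lists and the members of each list farthest from 0. The comparison, the lists and this rule were chosen with earlier results of these data known. Alternatives covered normalization, background correction (normexp with offset 50 on the median signal, since the files hold no mean signal), filters, probes per gene, the floor, blocks for slide and replicate number, fewer arrays, the eBayes settings, array weights and thresholds. Some called genes are not reported here.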

Additional observations from a re-analysis of the deposited data

How the results depend on the processing

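Counts of genes called are given here first against control cells and then against the other 4 KDs (225 and 243 as reported). They were 18 and 29 under quantile normalization, 2 and 5 with normexp background correction (which moved the median of all genes to -0.40), and 95 and 125 for genes well above background on all 4 arrays. With the slide as a block they were 57 and 74, with a trended and robust variance prior 64 and 105, with array weights 95 and 91, and with the floor divided by 4 they were 41 and 55. A fit of only the arrays compared gave 0 and 100, and one without *Tet1* KD and *Mbd2* KD gave 0 and 8 (2368 and 2464 genes had an unadjusted p under 0.05 where limma called 0). An adjusted p under 0.10 gave 470 and 410, and an added minimum of 2-fold gave 138 and 92. The authors' deposited table, 7425 genes whose test leaves out the spread of *EGFP* KD, gave 3364 and 790. Its 2 *Mbd3* KD columns had slopes of 0.11 and 0.1 against the scanner differences over 7073 genes, so sizes there are on another scale. Leaving out 1 array gave 28 to 83 and 18 to 100. No filter, the mean of a gene's probes, every probe tested and, chosen after seeing the data, outlier spots kept gave counts within 1.5 times of those reported. So did the replicate block (246 and 225), although the replicate numbers are not stated to pair samples. Of the 225 called genes, 213 kept their direction with normexp, 224 with the mean of a gene's probes and 217 of 221 tested in the authors' table. Named genes that turned their sign were all uncalled. With normexp these were *Tex11* (-0.079), *Pkp2* (-0.231), *S100a3* (-0.115), *S100a1* (-0.133), *Atf3* (-0.185), *Furin* (-0.002), *Lgr5* (-0.089), *Hoxd9* (-0.195), *Cdk6* (-0.166) and *Fdps* (0.160). With the authors' table they were *Farp1* (-0.036), *Ppp2r1b* (0.102), *Fdps* (0.006) and *Pfkp* (-0.051), with the mean of probes *Plagl1* (0.041) and with the slide block *Plac1* (0.337). Leaving out 1 array turned *Fosl1* (-0.235 to 1.747), *Pkp2* (-0.480 to 6.875), *Neurog2* (-1.809 to 0.007), *Dcn* (-1.545 to 0.253) and *Hoxc4* (-2.565 to 0.069). The causes were not tested.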

Other observations

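Further called genes, picked after their values were seen and in no list, are given as values. Of those named below for the first time, *Foxj1*, *Dnaic2*, *Gpx2* and *Nfatc2* were also called with the slide as a block, and the others were not. *Foxj1*, a transcription factor that drives the genes of motile cilia, went from -3.92 and -3.70 in control cells to -2.05 and -1.90 in *Mbd3* KD cells (log2 fold change 1.84, limma adjusted p = 0.0055). *Dnaic2*, an axonemal dynein chain, rose by 0.85 (limma adjusted p = 0.040), whereas *Ccno*, also known from ciliated cells, fell. *Padi2*, a second peptidyl arginine deiminase beside *Padi4*, rose by 1.48 (limma adjusted p = 0.040).

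Some called genes are known from epithelia. *Gpx2*, a glutathione peroxidase of the gut, went from 2.68 and 3.17 to 4.30 and 4.38 (1.41, limma adjusted p = 0.032). *Vil1*, the actin-bundling villin, rose by 1.27, *Rab25*, an epithelial Rab protein, by 1.48 and *Prom1*, a protein of membrane protrusions, by 1.41, with limma adjusted p between 0.025 and 0.037. *Slc51a*, a subunit of an intestinal bile acid transporter, differed the other way, by -1.32 (limma adjusted p = 0.028).

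Some genes known from blood cells were called, although no list of such genes was examined and the share of them called is not known. *Nfatc2*, a calcium-regulated transcription factor, rose by 1.42 (limma adjusted p = 0.0039), *Vav1*, a guanine nucleotide exchange factor, by 1.63 (limma adjusted p = 0.040), *Cd74*, the invariant chain of class II antigen presentation, by 1.41 (limma adjusted p = 0.028) and *Coro1a*, an actin-binding coronin, by 1.07 (limma adjusted p = 0.024).

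In 3 places called genes with no other tested gene with a symbol starting between them had the same direction. *Gstt1* and *Gstt3*, glutathione transferases, rose by 1.74 and 0.95 (limma adjusted p = 0.036 for both), *Xaf1* and *Slc13a5*, a citrate transporter, by 1.99 and 1.03, and *Polr3gl*, a subunit of RNA polymerase III, and *Ankrd34a* differed by -1.20 and -1.42.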
